A study of Drosophila melanogaster with 2 samples.

Results

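The Hippo pathway of Drosophila melanogaster is described here through 10 genes chosen by name: the upstream regulators ft, ex, Mer and kibra, the kinase core hpo, sav, wts and mats, and the nuclear effectors yki and sd. All 10 were found by symbol in the Ensembl BDGP6 annotation and all had a ranked candidate peak close to a transcription start site (TSS), as did 10367 protein-coding genes in all. The measurement was chromatin immunoprecipitation with sequencing of whole embryos collected over 0 to 24 h, from flies that carry an insertion at ssp expressing the protein fused to enhanced green fluorescent protein (ssp-eGFP), pulled down with an antibody against GFP. The labels give 1 group with 2 biological replicates and 1 donor strain, and no other genotype, treatment or stage, so no test between conditions is possible. Sex was not recorded. Whole embryos of all stages in that interval went into each sample, and occupancy in a few cells cannot be told apart from weak occupancy in many. Values are the authors' peak signals on dm6, a score per peak with no unit, and the lists hold no read counts, so depth is unknown.

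The Hippo pathway restrains organ growth. Signals from cell junctions, from apical membrane proteins and from the large cadherin Fat activate the kinases Hippo and Warts. Warts phosphorylates Yorkie and keeps it out of the nucleus, where Yorkie would otherwise act with the DNA-binding protein Scalloped on growth and survival genes. The gene ssp (sunspot) encodes a nuclear protein that was described as a link between Wingless signalling and endoreplication.

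Of the 10 genes, 5 had a peak in the combined list, which the authors made from both replicates, with its summit within 500 bp of a TSS: Mer, hpo, sav, mats and yki. By role these were 1 of 4 upstream regulators, 3 of 4 kinase core genes and 1 of 2 nuclear effectors. Among the 10367 protein-coding genes with a candidate in that window the share was 28.8%. The conservative list held the same 5 genes, against 28.1% of all. Replicate 1 on its own held 4, Mer, hpo, mats and yki, against 24.1%, and replicate 2 held 2, Mer and mats, against 23.1%. Mer and mats were thus the members found in both replicate lists, against 20.3% of all genes. With only 10 genes, chosen with earlier results of these data known, these shares are a description and no test was made of them.

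The 5 member peaks were of middling to low strength beside other peaks at a TSS. Their combined signals ran from 78.5 at sav through 106 at hpo, 136 at mats and 168 at Mer to 194 at yki, with a median of 136. The 2338 combined peaks at a protein-coding TSS had a median of 168 with quartiles of 105 and 357. All 5 were 416 bp wide, the median width of the list.

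The gene with by far the highest signal, kibra, was in no thresholded list. Its candidate had a signal of 3047, rank 38 of 130840 ranked candidates, and its irreproducible discovery rate (IDR, the estimated share of candidates at least as consistent between analyses that are irreproducible) was at the smallest value the lists record, 1e-05. Only 37 combined peaks had a higher signal.

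**Figure D1:**
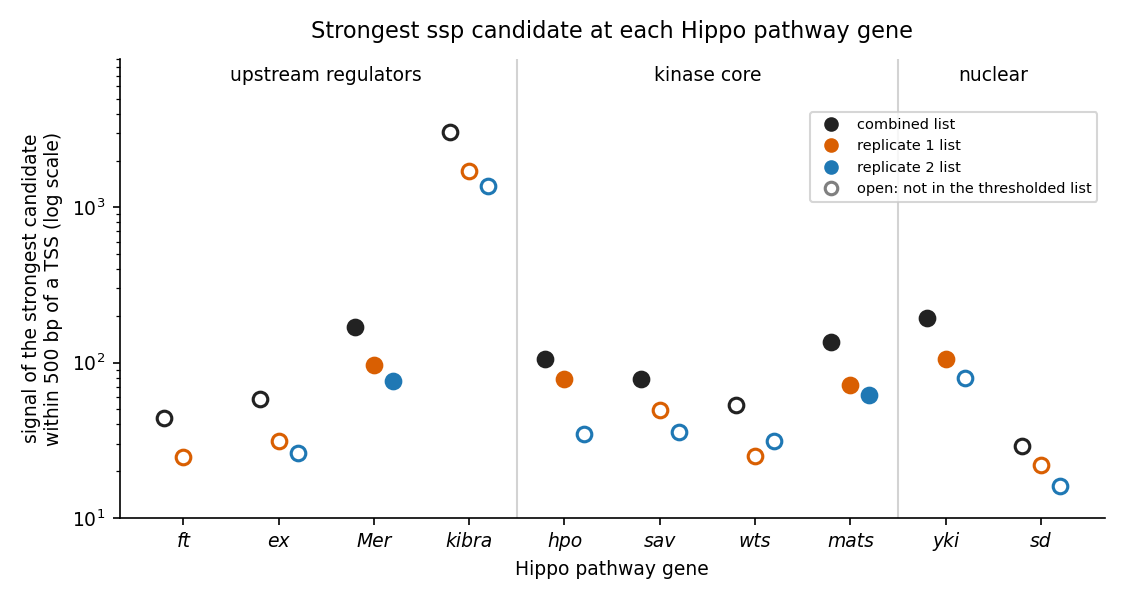
Signal (log scale) of the strongest ranked candidate within 500 bp of a TSS of each gene, in the combined list and in each replicate. Filled points are in the thresholded list and open points are not. The kibra points, at 1371 to 3047, lie above all others and are open, and the other 9 genes stay at or below 194.

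kibra (FBgn0262127, 3R from 14697689 to 14724261, minus strand, dm6) encodes a WW-domain scaffold that acts with Merlin and Expanded at the apical membrane to activate the kinase core. Its candidate ran from 14724160 to 14724585 with the summit 100 bp upstream of the single annotated TSS. In replicate 1 the signal was 1703, rank 27 of 115466, with the summit at the same base. In replicate 2 it was 1371, rank 44 of 81721, with the summit 87 bp upstream. Both replicates had an IDR of 1e-05. The log2 ratio of replicate 2 to replicate 1 was -0.31, beside a median of -0.21 with an SD of 0.32 over the 2782 combined peaks found in both replicate lists. No other annotated gene had a TSS within 500 bp of the summit.

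Candidates past an IDR of 0.01 that overlapped no combined peak numbered 197, and that of kibra was the strongest of them, followed by one with 2839. It was also the strongest of 191 in the conservative list, of 135 in replicate 1 and of 158 in replicate 2. Of these 197, 116 lay on the 6 main chromosome arms, beside 4914 of the 4948 combined peaks, and 59 of the 116 were on 3R. The share of all peaks on 3R was not worked out, so the count there cannot be judged. Within 500 bp of a TSS lay 50 of the 197, and 10 had a signal above 1000. Among the 10367 protein-coding genes 0.559% had such a candidate, and kibra was the 1 member that did. The deposited notes state that the thresholded lists derive from 1 further file, of a kind they do not name, which the ranked lists do not use. Its part in the absence of the kibra candidate was not tested, so the signal of 3047 is that of a candidate which the authors' final lists leave out, for a reason the notes do not give.

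**Figure D2:**
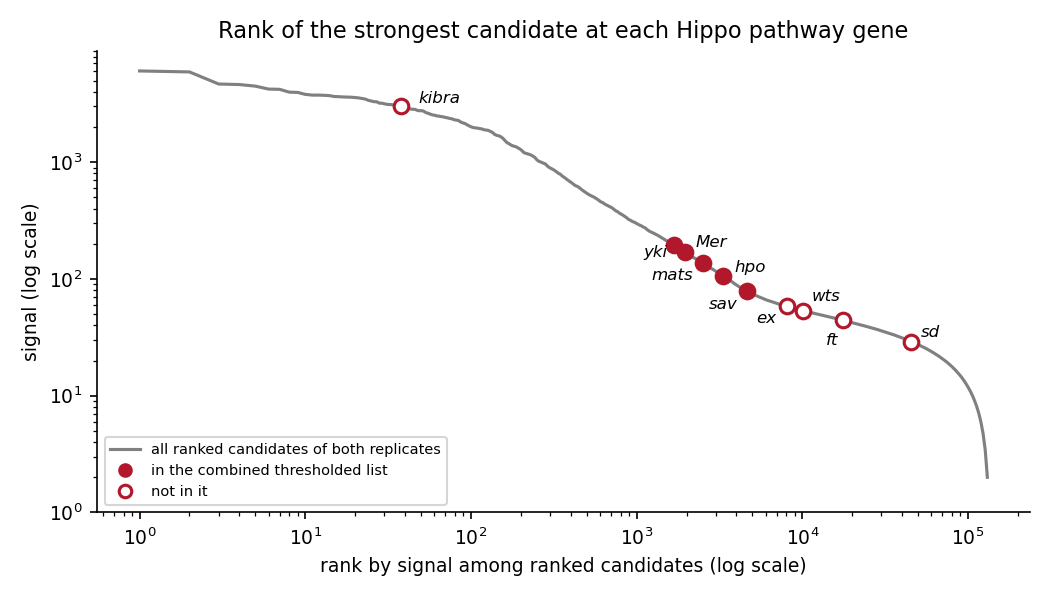
Signal against rank of all 130840 ranked candidates of both replicates together (grey line, both axes log), with the strongest candidate within 500 bp of a TSS of each member as a circle, filled where it is in the combined thresholded list. The kibra candidate holds rank 38, the 5 members with a peak hold ranks 1679 to 4639, and the other 4 lie from rank 8043 down to 45453.

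The bases within 50 bp of the kibra summit, which carry the strongest signal at any of the 10 genes, are shown with the 100 bases before the Mer TSS, which are part of the stretch of the Mer peak outside its transcript. Both are read 5′ to 3′ on the strand of the gene, which is minus, from the RefSeq Release 6 assembly (dm6). Capitals mark matches to a set of 11 motifs searched on both strands. In kibra these are the DNA replication-related element (DRE) TATCGATA and, reading TATCG on this strand, a further CGATA, the core of the DRE that is also bound by BEAF-32. In Mer the capitals mark GGTCACAC, the core promoter motif bound by M1BP.
kibra chr3R:14724311-14724411: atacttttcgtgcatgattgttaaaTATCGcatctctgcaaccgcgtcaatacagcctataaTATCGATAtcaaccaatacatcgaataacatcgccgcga
Mer chrX:19693501-19693600: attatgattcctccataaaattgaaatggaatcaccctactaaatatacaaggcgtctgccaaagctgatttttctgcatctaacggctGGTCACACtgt

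A DRE was found within 50 bp of the summit at 117 of 2338 combined peaks at a protein-coding TSS (5.0%) and at 14 of the 224 with a signal of 1000 or more (6.25%). Among the members' peaks at a TSS and the kibra candidate, 6 windows in all, only that of kibra held it. The CGATA core, which the DRE contains, was in 2 of these 6 windows, kibra and Mer, against 620 of 2338 (26.5%). GGTCACAC was within 50 bp of the summit in none of the 6 windows, Mer included, against 49 of 2338 (2.10%). The match in Mer crosses the edge of that window, so it is not counted there. Within 100 bp of the summit GGTCACAC was in 1 of the 6 windows, that of Mer, against 150 of 2338 (6.42%). In the 100 bases before a protein-coding TSS, with or without a peak, 506 of 19607 windows held one (2.58%).

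Mer (FBgn0086384, X from 19689697 to 19693500, minus strand) encodes Merlin, a membrane-linked FERM-domain protein and the fly counterpart of the human tumour suppressor NF2. Its combined peak, X from 19693249 to 19693664, had a signal of 168 (rank 1895 of 4948) and its summit lay 43 bp downstream of the TSS in the 5' UTR. The signal was 96.8 in replicate 1 and 75.8 in replicate 2, with summits 37 and 42 bp downstream. The IDR was 0.000127 in the combined analysis, 0.000194 in replicate 1 and 0.000183 in replicate 2, all past the threshold of 0.01. The log2 ratio of replicate 2 to replicate 1 was -0.35, within 1 SD of the median ratio of shared peaks. No other gene had a TSS within 500 bp of this summit.

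Mer was the strongest member with a peak in the combined and in both replicate lists. By Euclidean distance over its 3 log2 signals, the most similar of 2086 protein-coding genes were Deaf1 and Fibp, which share a peak (169 combined, 93.6 and 75.3 in the replicates), and mthl5 (175, 95.8 and 75.4), at distances of 0.05 on the log2 scale. These are genes with a peak of like strength, over 2 replicates of 1 condition.

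The other upstream regulators had no peak at their TSS. ex (FBgn0004583, 2L from 431227 to 448701, plus strand) encodes a FERM-domain partner of Merlin and is itself a known Yorkie target. Its strongest candidate lay 221 bp downstream of the TSS with a combined signal of 58.3 and an IDR of 0.337, and the conservative analysis gave the same candidate an IDR of 0.04, nearer the threshold but still short of it. In the replicates its strongest candidates had signals of 31.2 and 26.1, with summits 197 bp apart. ft (FBgn0001075, 2L from 4198404 to 4221796, minus strand) encodes the Fat cadherin, the receptor of the branch. It had 1 candidate with a combined signal of 44.2 and an IDR of 0.698, a signal of 24.5 in replicate 1 and no candidate in replicate 2.

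The kinase core genes sav and mats had peaks that differed in position and in support from the replicates. sav (FBgn0053193, 3R from 23058609 to 23061304, minus strand) encodes Salvador, a WW-domain scaffold that joins Hippo to Warts. Its combined peak, 3R from 23061171 to 23061586, had the lowest signal of the 5, 78.5 (rank 4171 of 4948), and an IDR of 0.00245. The summit lay 75 bp upstream of sav and 114 bp upstream of Ublcp1, a phosphatase gene transcribed the other way, so the peak belongs to a shared promoter. Neither replicate list held it: its strongest candidates had signals of 49.2 and 35.7, with IDRs of 0.0142 in replicate 1 and 0.297 in replicate 2.

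mats (FBgn0038965, 3R from 22421161 to 22423302, plus strand) encodes the Mob-family activator of Warts. Its combined peak, 3R from 22421606 to 22422021, had a signal of 136 and an IDR of 0.000298. The signal was 71.9 in replicate 1 and 61.4 in replicate 2, both past the threshold, with a log2 ratio of -0.23. The summits of the replicates lay 1 bp apart, where the median over shared peaks was 15 bp. This summit sat in an intron 489 bp downstream of the nearer of 2 annotated TSSs, just inside the window of 500 bp. Of the members' combined peaks outside the window, the nearest to a TSS of its own member lay 902 bp upstream of ex.

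The bases within 50 bp of the sav and mats summits are shown because one lies between diverging promoters and the other within a gene. Both follow the strand of the member, minus for sav and plus for mats, and the capitals in sav mark GGAATG, the motif of TEAD proteins such as Scalloped. No motif of the set was found in mats.
sav chr3R:23061329-23061429: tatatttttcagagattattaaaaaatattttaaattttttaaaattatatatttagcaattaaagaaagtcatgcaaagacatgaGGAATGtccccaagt
mats chr3R:22421764-22421864: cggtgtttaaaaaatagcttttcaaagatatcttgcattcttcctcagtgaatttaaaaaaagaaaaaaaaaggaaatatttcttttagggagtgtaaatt

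Both windows were rich in A and T, with a GC content of 20.8% in sav and 25.7% in mats against a median of 33.7% for combined peaks at a protein-coding TSS. The kibra window had 39.6% and the Mer summit window 44.6%. GGAATG was in 85 of 2338 windows at such peaks (3.64%). A match is a run of letters and not a measured binding site.

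hpo (FBgn0261456, 2R from 19493996 to 19496856, minus strand) encodes the Ste20-family kinase at the head of the core. Its combined peak, 2R from 19496640 to 19497055, had a signal of 106 (rank 3157 of 4948) with the summit 8 bp downstream of the TSS. Its IDR of 0.00696 was the closest to the threshold of 0.01 of the 5 member peaks, and no member's candidate at a TSS lay just outside it in the combined analysis, the next being ex at 0.337. The signal was 78.1 in replicate 1, which held the peak, and 34.7 in replicate 2, which did not (IDR 0.842). The log2 ratio between these candidates was -1.17, below the 5th to 95th percentile range of -0.75 to 0.30 for peaks shared by the replicate lists. That range holds only peaks past the threshold in both lists, which leaves out candidates weak in 1 replicate, so the comparison is not like for like. The hpo summits of the replicates lay 87 bp apart, where the 95th percentile over shared peaks was 82 bp.

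wts (FBgn0011739, 3R from 30789625 to 30806619, minus strand) encodes the kinase that phosphorylates Yorkie and was the kinase core gene without a peak at its TSS. Its candidate there had a combined signal of 53.5 and an IDR of 0.788. The replicates gave 25.1 and 31.5, the only member where replicate 2 was the higher. These 2 candidates had IDRs of 0.835 and 0.697, and their summits lay 66 bp apart.

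Of the nuclear effectors, yki had a peak and sd did not. yki (FBgn0034970, 2R from 24065975 to 24068485, minus strand) encodes the transcriptional coactivator that the pathway restrains. Its combined peak, 2R from 24068643 to 24069058, had the highest thresholded signal of the members, 194 (rank 1621 of 4948), and an IDR of 9.68e-05. The summit lay upstream of yki, at -366 bp from its TSS, but 94 bp downstream of a TSS of the neighbouring Gpat4, a glycerol-3-phosphate acyltransferase gene, in its 5' UTR. With peaks given solely to their closest protein-coding TSS, this one went to Gpat4 and 4 members had a peak.

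The replicates gave yki nearly the same position and unequal standing. In replicate 1 the signal was 105 with an IDR of 8.12e-05. In replicate 2 it was 79.0, above the 75.8 of the Mer peak in the same list, but the IDR was 0.737 and the candidate was not in the list. The summits lay 1 bp apart and the log2 ratio was -0.41.

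sd (FBgn0003345, X from 15804370 to 15827682, plus strand) encodes Scalloped, the TEAD-family protein that brings Yorkie to DNA. It has 7 annotated TSSs and 6 combined candidates near them, but the strongest had a signal of only 29.1 (rank 45453 of 130840, IDR 0.551). The strongest in the replicates had signals of 22.0 and 15.96, at different TSSs of the gene. These were the lowest values of the 10 genes in each list that held a candidate.

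**Figure D3:**
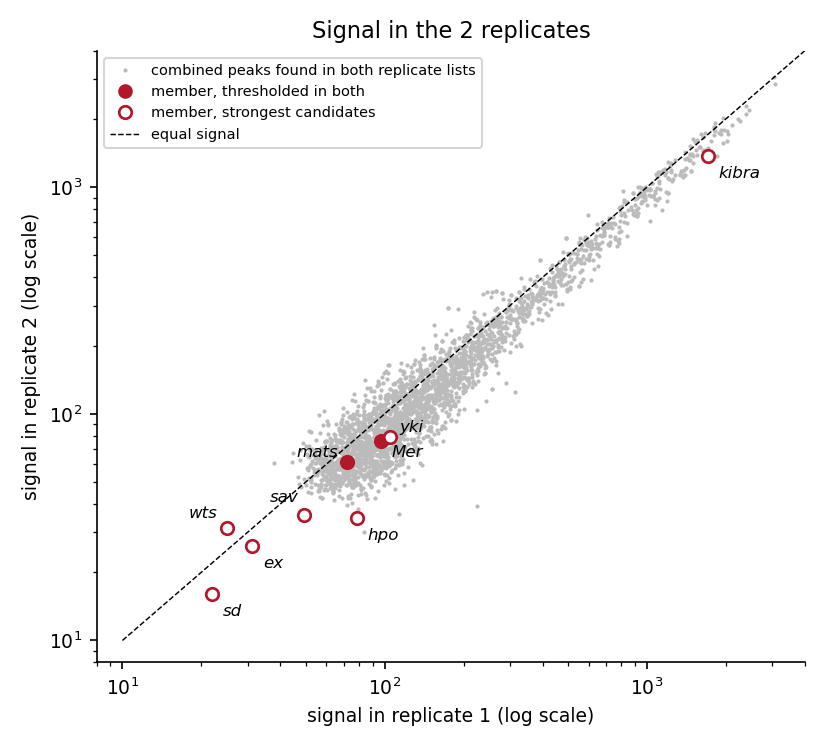
Signal in replicate 1 against replicate 2 (both log scales). Grey points are the 2782 combined peaks found in both replicate lists, and circles are the strongest candidates of the members within 500 bp of a TSS, filled for Mer and mats, which are in both lists. Most members lie below the line of equal signal, with hpo farthest below it, wts above it, and ft not drawn for lack of a candidate in replicate 2. The strongest candidates of a member in the replicates need not lie at the same position, as at ex and sd.

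Away from their TSSs the long genes of the pathway held further peaks. Within the 10 genes and 2000 bp on each side, 12 combined summits lay over 500 bp from each TSS of the member: 5 at wts, 3 at kibra, 2 at ex and 1 each at ft and sd. Their signals ran from 66.6 to 298 with a median of 120. Of the 12, 7 lay inside the gene, all in introns, and 6 were in both replicate lists, beside 2782 of all 4948 combined peaks. Mer, hpo, sav, mats and yki, the 5 shortest members, had none.

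wts had the most. Inside the gene its summits lay 2631, 9075 and 9746 bp downstream of the TSS, with combined signals of 89.3, 151.5 and 123. The summit at 9075 bp had signals of 79.0 and 70.1 in replicates 1 and 2, and that at 9746 bp 75.4 and 56.1. The one at 2631 bp was in the list of replicate 1 alone, at 62.6. A further summit lay 58 bp past the annotated 3' end of wts, with a combined signal of 143 and 90.5 and 55.2 in the replicates. The strongest, with 298 combined, 165 and 132, lay 1880 bp upstream of wts but 118 bp upstream of cindr, an adaptor protein gene, and so is at the TSS of another gene.

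kibra had 3 intronic summits besides its promoter candidate, 2138, 9491 and 17099 bp downstream of the TSS. Their combined signals were 83.8, 116 and 102, all in the conservative list too. The summit at 9491 bp was in replicate 2 alone (52.7), that at 17099 bp in replicate 1 alone (59.6), and that at 2138 bp in neither. ex had an intronic summit 10902 bp downstream, with a signal of 205 (rank 1529 of 4948), 106 in replicate 1 and 95.1 in replicate 2, and the summit 902 bp upstream, with 89.5, in replicate 1 alone at 61.7. The peak of ft, 1271 bp upstream with 66.6, was in neither replicate list nor the conservative one. That of sd, 1317 bp upstream with 218, 122 and 90.3, lay 84 bp upstream of a TSS of PGRP-LE, a peptidoglycan sensor gene, and within the 5' UTR of a longer transcript of it.

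Among 1985 protein-coding genes of 10000 bp or more, a length chosen after the members' values were seen, 38.9% had such a summit inside the gene and 8.51% had 3 or more. Of the 5 members of that length, ex, kibra and wts had at least 1, and kibra and wts had 3. ft and sd had none inside the gene.

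**Figure D4:**
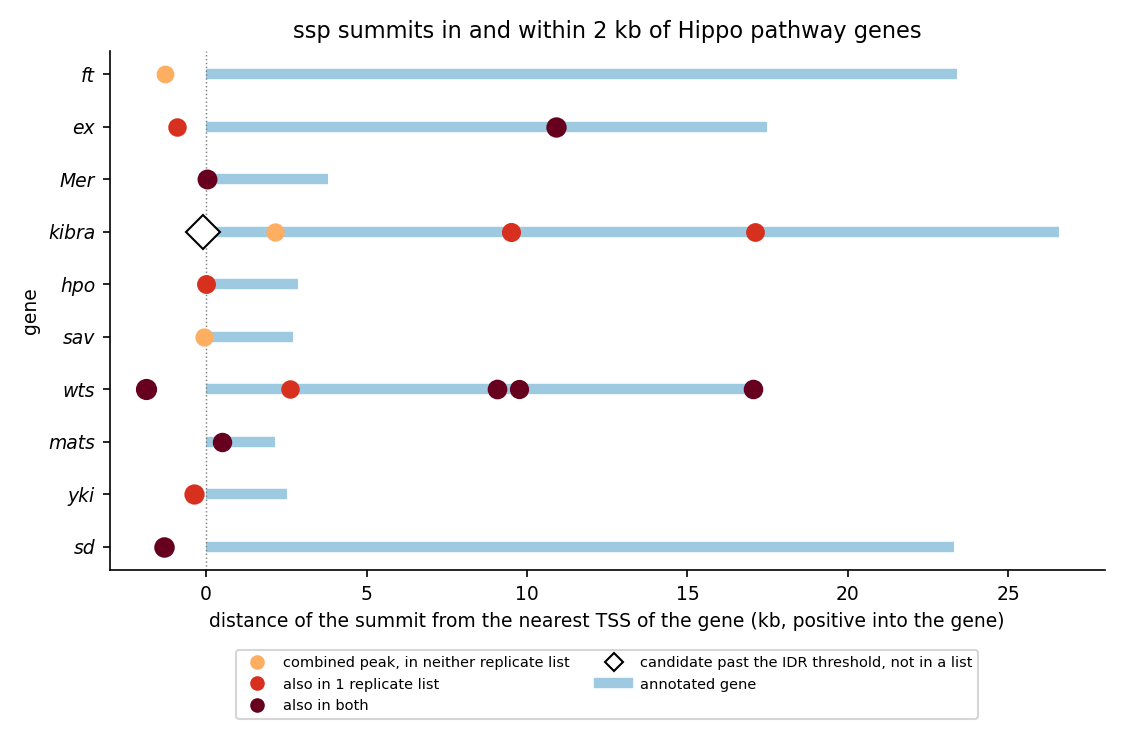
Position of ssp summits relative to the nearest TSS of each gene, in kb, for the 10 genes and 2 kb on each side, with the annotated gene as a blue bar. Circles are combined peaks, coloured by the number of replicate lists that hold them and growing with the log of the signal, and the diamond is the kibra candidate that no list holds. The 5 short genes have a single summit near the start, and wts has 5 summits away from it.

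The bases within 50 bp of 3 of these summits are shown. They are the strongest intronic one (ex) and, at wts, the intronic one at 9746 bp and the strongest, at the cindr promoter. The stronger intronic summit of wts, at 9075 bp and also in both replicate lists, is not shown and held no motif of the set. The 3 sequences follow the strand of the member, plus for ex and minus for wts. In the intron of wts the capitals mark the same DRE core as above, read from the other strand, and near cindr they mark TTTGGCGC, an E2F motif. No motif of the set was found in ex.
ex intron chr2L:442079-442179: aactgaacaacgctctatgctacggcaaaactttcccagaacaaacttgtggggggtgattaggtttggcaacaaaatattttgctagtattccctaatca
wts intron chr3R:30796823-30796923: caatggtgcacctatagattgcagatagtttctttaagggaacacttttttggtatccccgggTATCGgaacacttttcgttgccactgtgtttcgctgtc
wts upstream chr3R:30808449-30808549: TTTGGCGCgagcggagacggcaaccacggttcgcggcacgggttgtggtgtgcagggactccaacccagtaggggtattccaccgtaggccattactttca

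Over all 4914 combined peaks on the 6 arms, a CGATA lay within 50 bp of the summit in 18.8% and TTTGGCGC in 0.549%. Of the 12 windows away from member TSSs, 4 held CGATA, 1 held TTTGGCGC and 1, past the 3' end of wts, held GGAATG (3.76% of all). CAGGTAG, bound by Zelda, was in 1, the kibra summit at 17099 bp, against 0.509% of all. CACGTG (an E-box, 0.916% of all), GAGAG (bound by Trl, 8.45%), GCGGGAAA (E2F, 0.346%), ATCAAAG (bound by Pangolin, 1.67%) and CATCNCTA (core promoter motif 7, 1.63%) were in none of the members' windows of this length.

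Other genes of the pathway were taken from 5 written lists, 59 genes in all. Of these, 47 had a candidate within 500 bp of a TSS and 22 a combined peak (46.8% of the 47), with signals from 67.1 to 3978 and a median of 155. In 14 of the 22 the peak was in both replicate lists, and in 12 its summit was also within 500 bp of the TSS of another gene. Of the 10367 protein-coding genes with a candidate, 2984 had a combined peak and 2109 had one found in both replicate lists. No share over all genes was worked out for shared summits, so the count of 12 cannot be judged. The lists were chosen with earlier results known, and the share of all protein-coding genes was 28.8%. The 22 include the microRNA gene mir-ban, and 21 are protein-coding.

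Regulators of the kinase core had a peak in 9 of 16 genes with a candidate. The highest signal was at Zyx (FBgn0011642, chromosome 4), which encodes zyxin, a cytoskeletal protein that acts on Warts: 3978 combined, rank 8 of 4948, 2113 in replicate 1 and 1877 in replicate 2. The Zyx summit lay 54 bp upstream of its TSS and is shared with the lipoprotein gene apolpp. Slmap (FBgn0040011, 2L), of the phosphatase complex that opposes Hippo, had 1724, with 925 and 811 in the replicates and the summit 17 bp downstream of its TSS. mts, the catalytic subunit of that phosphatase, had 164 and shares its summit with Rack1, and the kinase gene Sik3 had 158. The Slmap summit is at 22579089 on an arm of 23513712 bp. Whether the high signals of Zyx and Slmap go with their place in the genome was not tested.

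Nuclear partners of Yorkie and Scalloped had a peak in 5 of 7, led by Trl (GAGA factor, 249), Hipk (a kinase, 129), mask (a Yorkie cofactor, 111, shared with Spase22-23) and Tgi (a repressor that competes with Yorkie for Scalloped, 92.8). Target genes had one in 3 of 7: CycE (215), the glypican gene dlp (172, shared with RecQ5) and the bantam microRNA gene mir-ban (85.8). Diap1, Myc and E2f1 had none. The Fat branch had a peak in 2 of 7, the palmitoyltransferase gene app (339, shared with CG32100) and the casein kinase gene dco (312), while ds, fj and dachs had none. Polarity and adhesion genes had one in 3 of 10: aPKC (257, shared with ckn), dlg1 (209.6) and alpha-Spec (82.5, shared with Cdc37 and dlt). The absent genes named here were chosen as well-known members of their lists after their values were seen.

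**Figure D5:**
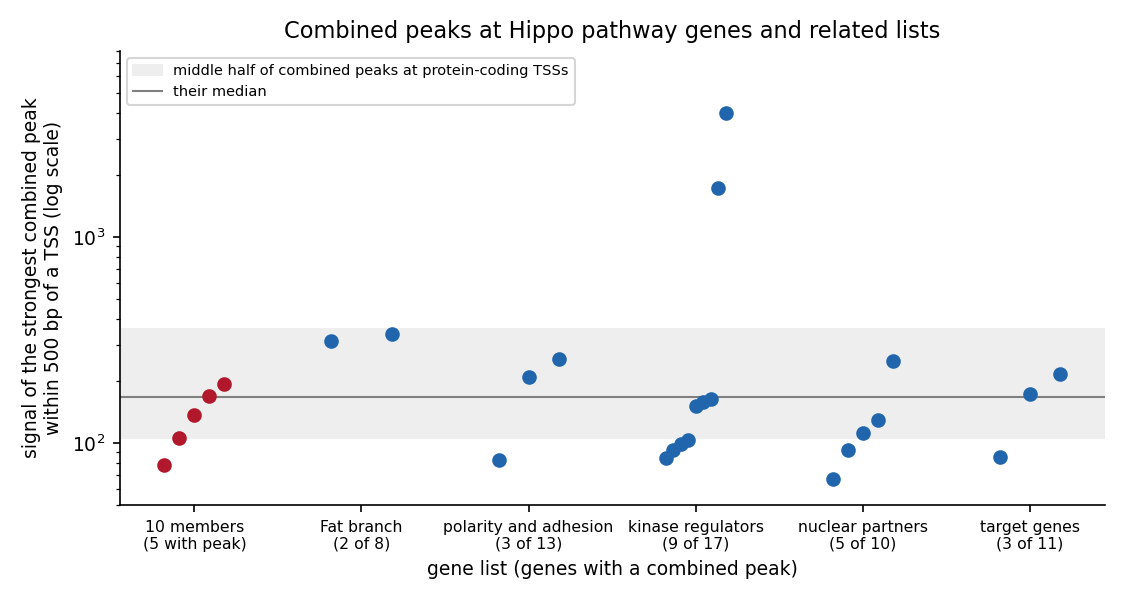
Signal (log scale) of the strongest combined peak within 500 bp of a TSS for the members and for each of 5 other pathway lists, 1 point per gene with a peak. The grey band spans the quartiles of combined peaks at protein-coding TSSs (105 to 357) and the line is their median (168). All points but Zyx and Slmap lie below the upper quartile, and the kibra candidate, at 3047, is not drawn because the list does not hold it.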

How the data were processed

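Per the deposited notes, the authors made peak lists on dm6 from the reads of single replicates and of the pair, ranked candidates by IDR and thresholded them. For aligner and peak caller the sources used here give nothing, and the possible control named in the labels is not analysed here. The deposited signal is the peak caller's value per peak. It is compared within a list. Ratios between replicates include any difference in scale. The deposited scores are an IDR score and, in ranked lists, minus log10 of the global IDR, of which 2 or more was taken as past the threshold. In the 2 ranked lists made from both replicates, 16 columns name no sample and were left aside.

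Summits were assigned to every TSS of Ensembl release 115 within 500 bp. Coordinates count from 1. All peaks on the 6 main arms lay within the chromosome lengths of the RefSeq genome, which is the same assembly. The assignment was tested on simulated data. Python 3.11.15 and pandas 2.3.3 were used.

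Members, lists and motifs were chosen with earlier results of these data known. All 10 members, genes sharing their summits and up to 4 genes per other list by signal are named. The genes most like a member were sought for Mer, because yki, the member with the highest combined signal, has no peak in replicate 2. No test was made, since there is 1 group.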

Additional observations from a re-analysis of the deposited data

How the results depend on the processing

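The count of 5 members with a combined peak at a TSS became 3 with a window of 200 bp, 3 among peaks above the median signal, and 2 to 4 with a replicate left out (2 without replicate 1). It was 6 with a window of 1000 bp, 4 with the nearest TSS only and 5 in the conservative list or with any base of the peak in the window. The median share of combined peaks with a lower signal than a member peak was 51.1%, 39.3% among peaks at a protein-coding TSS, and 35.8 to 42.7% with a replicate left out, where fewer members had a peak. Peaks away from member TSSs numbered 12, 7 in gene bodies only, by construction, 8 without replicate 1, 10 without replicate 2 or in the conservative list, and 15 with a wider flank on each side. The 22 other pathway genes with a peak became 17 with a window of 200 bp or with either replicate left out, and 27 with a window of 1000 bp. The kibra candidate was the 1 extra member candidate in all 5 alternatives run for it. No paired analysis was possible because there is 1 group. Unknown depth limits any statement on weak or missing peaks.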

Other observations

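Of the 17 combined peaks at or near the members, 1 overlapped an annotated transposable element, the intronic kibra peak 17099 bp downstream of the TSS, which overlaps an INE-1 element. Over all 4948 combined peaks the share was 2.57%.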
